A study of Mus musculus with 8 samples.

Results

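The genes described here are those of the MHC class I antigen presentation machinery and the immunoproteasome. Members were taken by symbol from the deposited count table, and all 10 of them were found among its 13387 genes and passed the filter on low counts. They are the heavy chains H2-K1 and H2-D1, the light chain B2m, the peptide transporter genes Tap1 and Tap2, the loading factor Tapbp, the immunoproteasome subunits Psmb8, Psmb9 and Psmb10, and the transactivator Nlrc5.

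MHC class I molecules display peptides from the inside of a cell to CD8+ T cells. Proteins are cut by the proteasome, the peptides are pumped into the endoplasmic reticulum by the TAP transporter, and tapasin holds the transporter and the class I molecule together while a peptide is loaded. In cells exposed to interferon-γ, and constitutively in many blood cells, the catalytic subunits of the proteasome are exchanged for the immunoproteasome subunits Psmb8, Psmb9 and Psmb10. Megakaryocytes (MKs), the marrow cells that make platelets, are known to carry class I molecules and to pass them on to platelets.

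The study asked how bone marrow mesenchymal stem cells (MSCs) change MKs and the platelets they release. Bulk RNA-Seq was performed on wild-type C57BL/6 murine cells, with 4 libraries of MKs cultured alone and 4 libraries of MKs cultured together with MSCs for 18 hours, both in medium with thrombopoietin. MKs were marrow cells enriched on CD41 beads, and MSCs were marrow cells sorted as CD45-Ter119-CD31-CD51+CD140a+, so the MK cultures could hold other marrow cells. The labels give the sequenced cells as MKs separated from platelets, the paper describes platelets, and the labels give no age for the mice of these libraries. Each library pooled 5 wells and each group had 4 mice, but the labels do not tie libraries to mice, so p-values measure the spread between these libraries.

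Libraries held between 4939874 and 12523616 counts, and values below are CPM (counts relative to library size) scaled by edgeR's TMM factors. Replicate 3 of the cocultures stood apart. In this library 1012 genes had no count although the other 7 libraries each had 10 or more, while no other library lacked more than 4 genes in this way. Tap1 and Nlrc5 were among the genes at 0 in it, so the members' results are given with and without this library. A count of 3 corresponded to between 0.284 and 0.662 CPM, which covers counting error only.

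Of the 10 members, Psmb10 rose and H2-D1 fell in coculture, by edgeR's quasi-likelihood test at a threshold of 0.05 on the p adjusted over the 11722 genes tested (Benjamini-Hochberg). Over all genes tested, 14.3% passed in the higher direction and 8.75% in the lower direction. When libraries were scaled to the MK and platelet markers in place of TMM, these shares were 20.8% and 5.35%, the median of all genes moved to 0.33, Psmb10 and Tapbp rose, and H2-D1 did not pass (log2 fold change -0.45, adjusted p = 0.168). With the added requirement of a 2-fold change, Psmb10 alone was called among the members, against 13.2% of all genes called higher and 7.31% called lower. The log2 fold change was above 0 for 3 members and below 0 for 7, and its median was -0.49 over the members and 0.03 over all genes tested. In CPM the groups did not overlap for 4 members, with Tapbp and Psmb10 higher in all cocultures and B2m and Psmb9 lower in all cocultures. Over all genes the groups were apart in this way for 19.3% with coculture higher and for 21.1% with coculture lower.

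Without replicate 3 of the cocultures, 5 members fell, namely H2-K1, H2-D1, B2m, Tap2 and Psmb9, and Psmb10 rose. Of the 12267 genes tested without that library, 25.9% fell and 29.2% rose. The median log2 fold change of the members was then -0.45, against 0.03 over all genes.

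**Figure D1:**
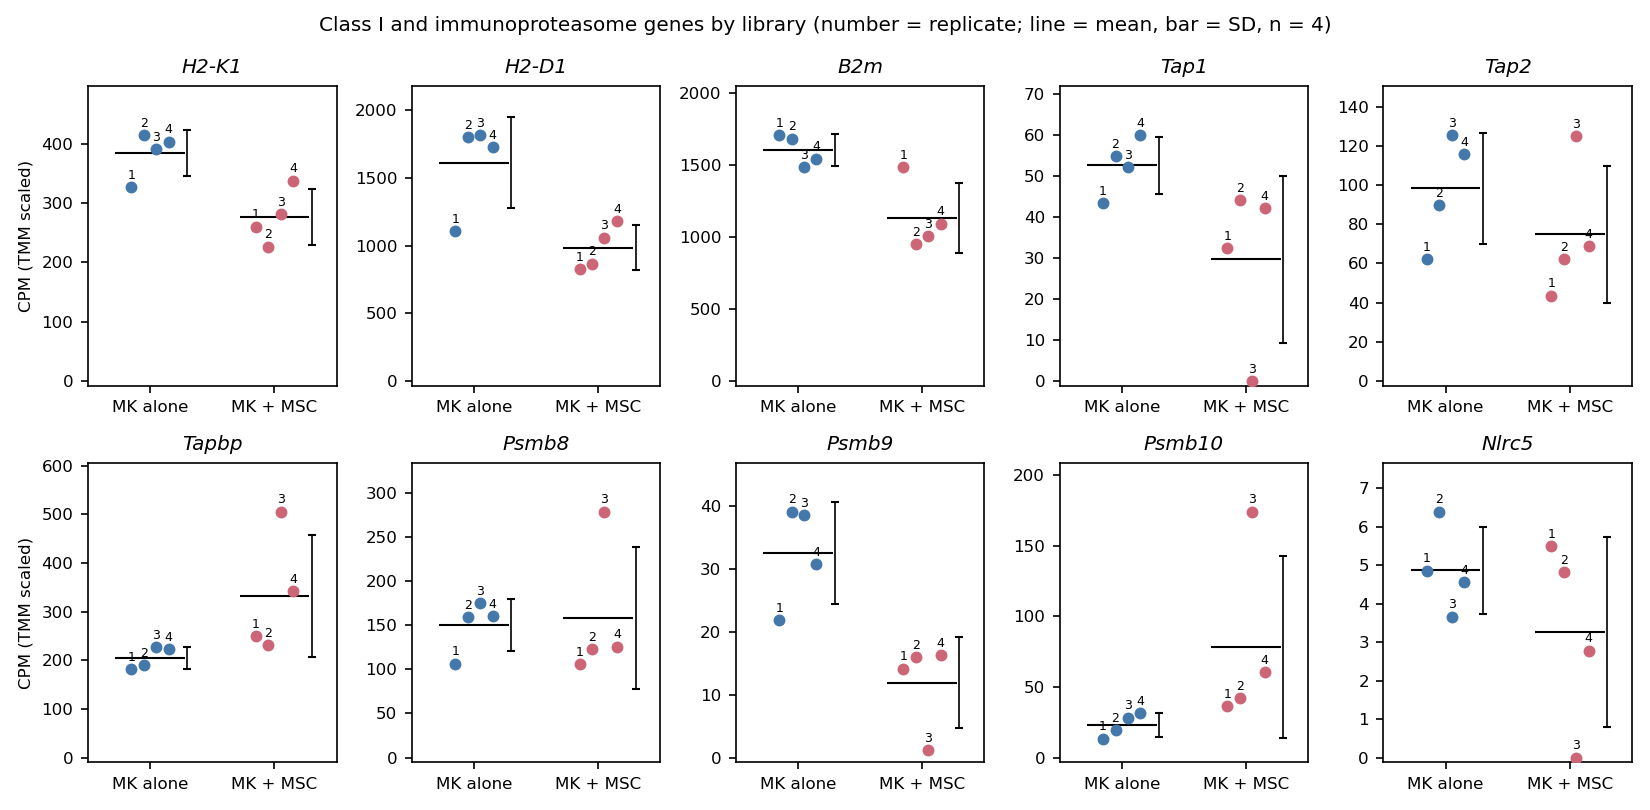
CPM of the 10 members in each library, with the replicate number above each point, the line at the mean and the bar for the SD (n = 4 per group). In the coculture panels replicate 3 lies at 0 for Tap1 and Nlrc5 and at 174 CPM for Psmb10, while its values for H2-K1, H2-D1 and B2m lie among those of the other cocultures.

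The marker genes of other cell types also moved between the groups. A CPM range given for a list is the summed level of all its markers in the count table, also those not tested. All 10 neutrophil markers fell, with summed levels of 82324 to 83753 CPM in MKs alone and 4386 to 9956 CPM in cocultures. The most abundant was S100a8, a calcium-binding protein of neutrophils (log2 fold change -3.46). Of 7 tested dendritic cell markers 4 fell (700 to 1178 CPM against 240.2 to 457 CPM), of 7 B cell markers 4 fell (850.4 to 898 CPM against 61.1 to 221 CPM), and of 7 T and NK cell markers 3 fell (131 to 221 CPM against 1.15 to 31.8 CPM). The share of all genes that fell was 8.75%. Without replicate 3 of the cocultures the tested markers that fell in these lists were 4 of 7, 5 of 7 and 6 of 8, against 25.9% of all genes. Cd74, the class II invariant chain, Ms4a1, a B cell surface protein, and Nkg7, a granule protein of cytotoxic lymphocytes, were the most abundant genes of these lists and fell with log2 fold changes of -1.37, -2.82 and -3.20.

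Markers of stromal cells and macrophages moved the other way. Of 8 tested MSC markers 7 rose (42.8 to 71.1 CPM against 1242 to 4122 CPM), with Sparc, a matrix protein, at a log2 fold change of 10.95. Lepr did not pass the filter on low counts, and Thy1, Lum and Dcn were not in the count table. Of 10 tested macrophage markers 9 rose (175 to 238 CPM against 1140 to 1528 CPM), among them Csf1r, the receptor for macrophage colony-stimulating factor (log2 fold change 1.33), and Marco was at 0 in all libraries of MKs alone. Of the 16 MK and platelet markers 1 fell, with summed levels of 2407 to 2667 CPM in MKs alone and 1848 to 2447 CPM in cocultures, and Pf4, the platelet chemokine, had a log2 fold change of 0.35 (SE 0.28, adjusted p = 0.409). Of the 16, 7 fell without replicate 3 of the cocultures, against 25.9% of all genes. With all libraries 14.3% of all genes rose and 8.75% fell. Of 3 tested endothelial markers 1 fell (99.5 to 115 CPM against 25.2 to 174 CPM), with Pecam1 at a log2 fold change of -0.33 (adjusted p = 0.798). Of 3 tested erythroid markers 0 passed in edgeR, 1 had an unadjusted p under 0.05 and 1 passed in DESeq2 (23.8 to 32.3 CPM against 7.03 to 55.5 CPM), with Hbb-bs at 0.61 (adjusted p = 0.733). The part that these cell types have in the class I values was not tested, and in bulk RNA fewer cells of a type and less RNA per cell cannot be told apart.

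H2-K1 and H2-D1 encode the classical class I heavy chains, and B2m encodes β2-microglobulin, the light chain that every class I molecule needs to reach the surface. Their genes share a promoter module, in which an X2 box and a Y box lie at a fixed distance and are bound by the complex that recruits Nlrc5. The letters TGACGNNNNNNNNNNNNNNNNNNNNATTGG were searched on both strands in the 250 bases before each RefSeq start (GRCm38.p6). They were found in 0.0913% of 32851 promoters, belonging to 26 of 27025 genes. Of the 8 members with an entry in the promoter table, the match was present in H2-K1, H2-D1 and B2m, the 3 members whose matched letters are shown here because the other members with an entry had no match. The capitals mark the letters fixed in the search.
H2-K1: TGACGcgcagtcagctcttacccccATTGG
H2-D1: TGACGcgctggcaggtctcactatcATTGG
B2m: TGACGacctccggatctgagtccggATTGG

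The H2-K1 match lies at chr17:34000359-34000388 on the minus strand, before the GENCODE gene (ENSMUSG00000061232.16, chr17:33996017-34000347). The H2-D1 match lies at chr17:35262993-35263022 on the plus strand, inside the exon of a longer GENCODE transcript (ENSMUSG00000073411.11, chr17:35262730-35267499). The B2m match lies at chr2:122147609-122147638 on the plus strand, before the gene (ENSMUSG00000060802.8, chr2:122147686-122153083). A core bound by interferon regulatory factors, GAANNGAAA, was present in 6.31% of the promoters. Among the members it was matched in H2-K1 (chr17:34000429-34000437) and H2-D1 (chr17:35262944-35262952), in both as TTTCacTTC, its reverse complement. The interferon-γ-activated sequence motif, TTCNNNGAA, was present in 7.02% of the promoters and among the members in Psmb8, as TTCccaGAA at chr17:34198098-34198106 in an exon of a longer transcript. A match is a description of letters and not of binding.

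H2-D1 was measured at 1108, 1801, 1815 and 1724 CPM in MKs alone and at 826, 866, 1057 and 1182 CPM in the cocultures, in the order of the replicates. Replicate 1 of the MKs alone was the lowest of its group and lay among the cocultures, and the other libraries of MKs alone were above every coculture. Its mean fell from 1612 ± 339 CPM to 983 ± 167 CPM (SD, n = 4), a log2 fold change of -0.71 (SE 0.22, adjusted p = 0.0485), which is 1.64-fold lower. With replicate 3 of the cocultures left out the log2 fold change was -0.77 (SE 0.21, adjusted p = 0.00585). The call was also kept without replicate 1 of the MKs alone (adjusted p = 0.0232) and was lost when any of the other 6 libraries was left out, namely replicates 2, 3 and 4 of the MKs alone and replicates 1, 2 and 4 of the cocultures, with adjusted p between 0.0751 and 0.144.

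H2-K1 was measured at 327, 415, 391 and 404 CPM in MKs alone and at 260.5, 227, 281 and 338 CPM in the cocultures. As for H2-D1, replicate 1 of the MKs alone was the lowest of its group, here below replicate 4 of the cocultures. H2-K1 had a log2 fold change of -0.47 (SE 0.18, adjusted p = 0.0953), and without replicate 3 of the cocultures it was -0.50 (SE 0.18, adjusted p = 0.0269). DESeq2, an alternative count test, passed H2-K1 with an adjusted p of 0.0335, whereas with scaling to the MK and platelet markers its log2 fold change was -0.20 (adjusted p = 0.454).

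The heavy chains share sequence. Of the 31-base stretches of their transcripts, the length kallisto matches by default, 20.3% of those of H2-K1 and 27.9% of those of H2-D1 also occurred in other genes, so how reads were divided between them is uncertain. With the counts of H2-K1 and H2-D1 summed, the log2 fold change was -0.66 (adjusted p = 0.0545), and with all class I genes of the H2 complex summed it was -0.64 (adjusted p = 0.0593).

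B2m was measured at 1709, 1684, 1484.9 and 1545 CPM in MKs alone and at 1484.6, 950.1, 1005 and 1094 CPM in the cocultures. Replicate 1 of the cocultures was level with the lowest library of MKs alone, and the other cocultures were well below it. B2m had a log2 fold change of -0.50 (SE 0.20, adjusted p = 0.0967), and without replicate 3 of the cocultures it was -0.47 (SE 0.19, adjusted p = 0.0466). DESeq2 passed B2m with an adjusted p of 0.0297, and edgeR also passed it without replicate 1 of the cocultures. With scaling to the MK and platelet markers the log2 fold change of B2m was -0.20 (adjusted p = 0.567). No 31-base stretch of B2m occurred in another gene.

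The heavy chains were also set against the light chain within each library, as log2 of the ratio of counts with 1 added to each, which needs no scaling between libraries. H2-K1/B2m differed by 0.04 between the group means (exact two-sided permutation test, p = 0.857, adjusted p = 0.971 over 6 ratios), and H2-D1/B2m by -0.18 (exact p = 0.486, adjusted p = 0.729). The groups overlapped for both ratios, with H2-K1/B2m between -2.38 and -1.92 in MKs alone and between -2.51 and -1.69 in cocultures.

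**Figure D2:**
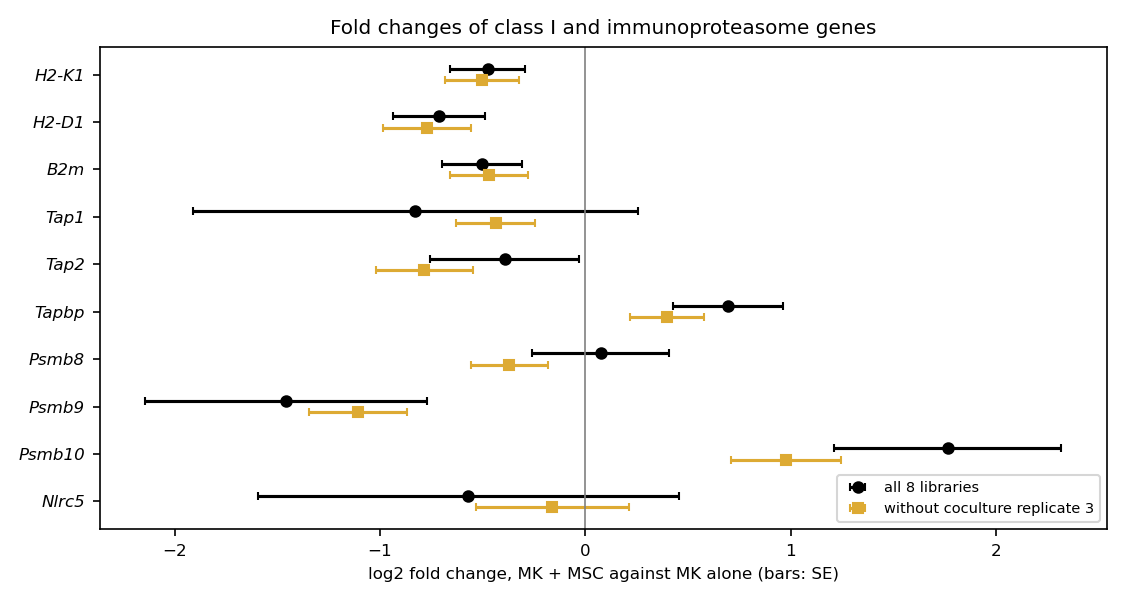
Log2 fold change of each member in coculture against MKs alone with its standard error as a bar, from all 8 libraries (black circles) and without replicate 3 of the cocultures (yellow squares). H2-K1, H2-D1 and B2m stay between -0.77 and -0.47 in both fits, Psmb8 changes side of 0, and the bars of Tap1, Psmb9, Psmb10 and Nlrc5 are narrower without the library.

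Tap1 and Tap2 encode the partner chains of the transporter that carries peptides into the endoplasmic reticulum. Tap1 was measured at 43.3, 54.8, 52.0 and 59.9 CPM in MKs alone and at 32.3, 44.0, 0 and 42.2 CPM in the cocultures. The value of 0 belongs to replicate 3, and of the other cocultures only replicate 2 reached into the range of the MKs alone. Its log2 fold change was -0.83 (SE 1.08, adjusted p = 0.625), and without that library -0.43 (SE 0.19, adjusted p = 0.0662).

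Tap2 was measured at 62.0, 89.6, 125 and 116 CPM in MKs alone and at 43.6, 62.0, 125 and 68.7 CPM in the cocultures. Here replicate 3 was as high as the highest library of MKs alone, in the same library in which Tap1 had no count. The log2 fold change was -0.39 (SE 0.36, adjusted p = 0.474), and without replicate 3 of the cocultures Tap2 fell by 0.78 on the log2 scale (SE 0.24, adjusted p = 0.0102). The log2 ratio Tap1/Tap2 differed by -2.10 between group means with all libraries (exact p = 0.971, adjusted p = 0.971) and by 0.32 without replicate 3, so its sign rests on that library.

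Tapbp encodes tapasin, which bridges the transporter and the empty class I molecule. It was measured at 181, 191, 226 and 223 CPM in MKs alone and at 249.6, 232, 506 and 342 CPM in the cocultures. Every coculture was above every library of MKs alone, with replicates 3 and 4 highest. Tapbp had a log2 fold change of 0.69 (SE 0.27, adjusted p = 0.0937), and without replicate 3 of the cocultures 0.40 (SE 0.18, adjusted p = 0.0700). Of the 31-base stretches of Tapbp 26.4% occurred in other genes, mostly in Gm19412.

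Of the 10 helpers of peptide loading that were listed, such as chaperones and the trimming enzyme Erap1, 0 passed in edgeR with all libraries, 0 had an unadjusted p under 0.05 and 0 passed in DESeq2. Their median log2 fold change was 0.27, and 0.35 without replicate 3 of the cocultures. When replicate 3 of the cocultures was left out, Hspa5 and Pdia3 rose, the second of which was chosen after seeing its values. Over all genes 29.2% rose without that library, so 2 of 10 is not read as a result about the list. Hspa5, the chaperone BiP, was measured at 1064, 1097, 997 and 943 CPM in MKs alone and at 1581, 1670.4, 726 and 1564 CPM in cocultures, where replicate 3 alone was below the MKs alone. Its log2 fold change was 0.43 (SE 0.27, adjusted p = 0.277), and without replicate 3 it was 0.63 (adjusted p = 0.00403). Calr, the lectin chaperone of the loading complex, was at 0.34 (SE 0.24, adjusted p = 0.345), and Sec61a1, a subunit of the translocation channel, at 0.32 (SE 0.22, adjusted p = 0.339).

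The 3 immunoproteasome subunits ranged in log2 fold change from -1.46 to 1.77. Psmb10 replaces the trypsin-like subunit Psmb7. Psmb10 was measured at 13.2, 19.3, 28.3 and 31.2 CPM in MKs alone and at 36.5, 42.2, 174 and 60.4 CPM in the cocultures. All cocultures were above all libraries of MKs alone, and replicate 3 was highest by a wide margin. The mean rose from 23.01 ± 8.26 CPM to 78.3 ± 64.7 CPM (SD, n = 4), a log2 fold change of 1.77 (SE 0.55, adjusted p = 0.0486), which is 3.40-fold higher. Without replicate 3 of the cocultures the mean of the cocultures was 46.4 ± 12.5 CPM, and the log2 fold change was 0.98 (SE 0.27, adjusted p = 0.00550), just short of 2-fold. The call was kept without replicate 1 of the cocultures (adjusted p = 0.0375) and was lost without any library of MKs alone or without replicate 2 or 4 of the cocultures, with adjusted p between 0.0504 and 0.128.

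Psmb9 replaces the caspase-like subunit Psmb6. It was measured at 21.8, 39.1, 38.5 and 30.7 CPM in MKs alone and at 14.1, 15.9, 1.15 and 16.3 CPM in the cocultures, so every coculture was below every library of MKs alone. Replicate 3 held 11 counts of Psmb9, against 94 to 149 in the other cocultures. Psmb9 had a log2 fold change of -1.46 (SE 0.69, adjusted p = 0.162), and without that library Psmb9 fell by 1.11 on the log2 scale (SE 0.24, adjusted p = 0.000845).

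Psmb9 and Tap1, the members lowest in replicate 3 together with Nlrc5, are neighbours on chromosome 17. Their RefSeq starts lie 226 bases apart on opposite strands, and in GENCODE their transcripts overlap (Psmb9, ENSMUSG00000096727.3, chr17:34181987-34187764, minus strand, and Tap1, ENSMUSG00000037321.17, chr17:34187553-34197225, plus strand). Of the 31-base stretches of Psmb9 10.8% occurred in Tap1, and whether the counting used strand is not given in the sources used here. Psmb8 (chr17:34197721-34201454) and Tap2 (chr17:34203527-34216321) follow on the plus strand, and in replicate 3 both had values at or above those of every other coculture.

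Psmb8 replaces the chymotrypsin-like subunit Psmb5. It was measured at 107, 159, 175 and 160.2 CPM in MKs alone and at 105, 123, 279 and 126 CPM in the cocultures. Replicate 3 was the highest library of all, replicate 1 was level with the lowest library of MKs alone, and replicates 2 and 4 lay below the other libraries of MKs alone. Its log2 fold change was 0.07 (SE 0.33, adjusted p = 0.901), and without replicate 3 of the cocultures -0.37 (SE 0.19, adjusted p = 0.105), so no direction is given for Psmb8.

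The constitutive subunits that these 3 replace were higher in coculture. Psmb5 was measured at 85.9, 114, 122 and 110.0 CPM in MKs alone and at 166, 197, 323 and 220.1 CPM in the cocultures, and rose with a log2 fold change of 1.07 (SE 0.24, adjusted p = 0.0137). Psmb6 was measured at 98.4, 146, 152 and 131 CPM in MKs alone and at 219.8, 262, 681 and 296 CPM in the cocultures, and rose with a log2 fold change of 1.47 (SE 0.37, adjusted p = 0.0212). Psmb7 was at 1.18 (SE 0.41, adjusted p = 0.0698), with 44.4 to 58.1 CPM in MKs alone and 62.1 to 229 CPM in the cocultures. For all 3 the groups did not overlap, and without replicate 3 of the cocultures all 3 rose, with log2 fold changes of 0.82, 0.95 and 0.56. Psmb7 also passed without replicate 4 of the cocultures (adjusted p = 0.0492). The call of Psmb5 was lost without replicate 1 or 4 of the MKs alone, and that of Psmb6 without any library of MKs alone, with adjusted p between 0.0505 and 0.0737.

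Each immunoproteasome subunit was therefore set against the subunit it replaces within the same library. The count ratio of Psmb8 to Psmb5 was 1.24, 1.39, 1.43 and 1.46 in MKs alone and 0.636, 0.626, 0.863 and 0.571 in the cocultures, so every coculture was below every library of MKs alone. Counts in these ratios are not divided by length, so only the change between groups is compared. The difference of the mean log2 ratios was -1.05 (exact two-sided permutation test, p = 0.0286, adjusted p = 0.0857 over 6 ratios). The value of 0.0286 is the smallest that 4 against 4 libraries allow, and it did not pass the correction. Without replicate 3 of the cocultures the difference was -1.17, with an exact p of 0.0571, the smallest that 3 against 4 libraries allow.

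The count ratio of Psmb9 to Psmb6 was 0.224, 0.268, 0.253 and 0.237 in MKs alone and 0.0647, 0.0611, 0.00184 and 0.0556 in the cocultures. The libraries of MKs alone lay close together, the cocultures other than replicate 3 likewise, and the groups did not overlap. The mean log2 ratio was -2.03 ± 0.11 in MKs alone and -5.31 ± 2.52 in cocultures (SD, n = 4), a difference of -3.28 (exact p = 0.0286, adjusted p = 0.0857). Without replicate 3 of the cocultures the difference was -2.02, with a mean log2 ratio of -4.05 ± 0.11 in the 3 cocultures left (exact p = 0.0571).

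The count ratio of Psmb10 to Psmb7 was 0.275, 0.333, 0.584 and 0.704 in MKs alone and 0.448, 0.523, 0.760 and 0.972 in the cocultures. The groups overlapped, and the mean log2 ratio differed by 0.55 (exact p = 0.257, adjusted p = 0.514). Psmb10 and its partner Psmb7 were both higher in every coculture than in any library of MKs alone, whereas Psmb8 and Psmb9 were lower relative to their partners in every coculture.

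**Figure D3:**
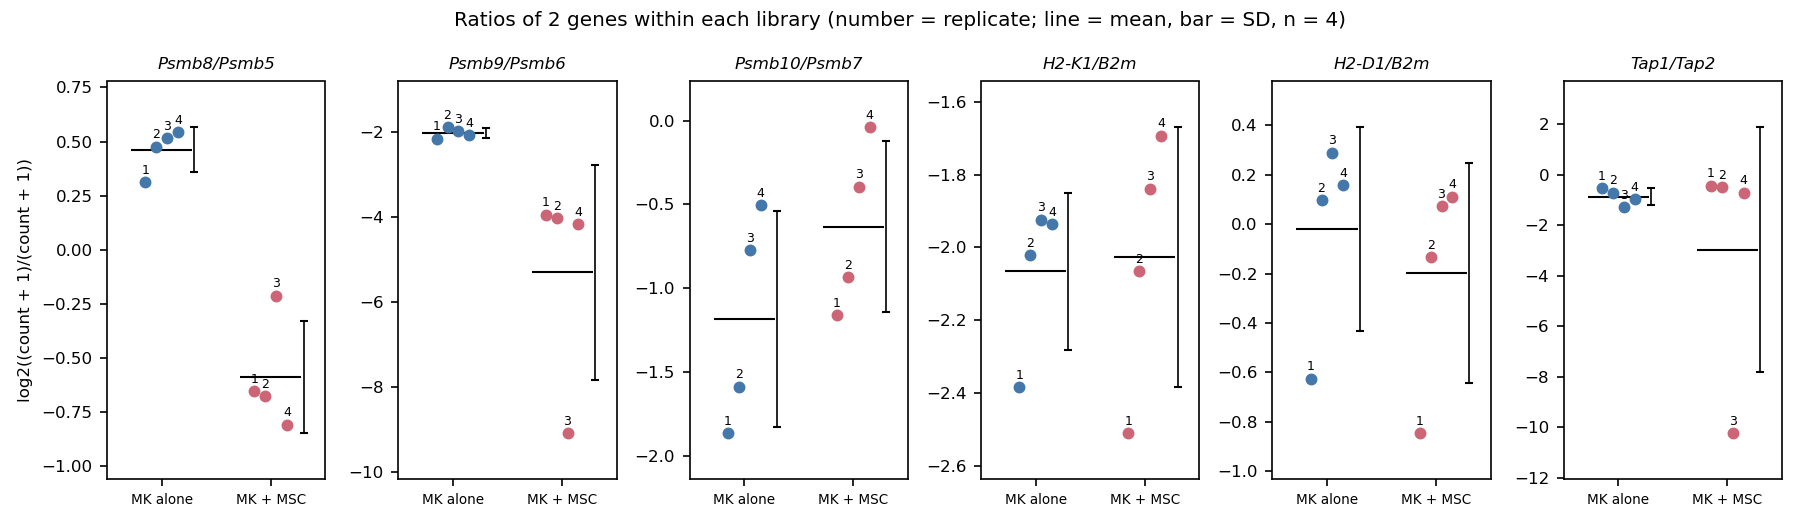
Log2 of the count ratio of 2 genes within each library (1 added to each count), with the replicate number above each point, the line at the mean and the bar for the SD (n = 4 per group). Psmb8/Psmb5 and Psmb9/Psmb6 are lower in every coculture than in any library of MKs alone, the other 4 ratios overlap, and replicate 3 of the cocultures lies at -9.08 for Psmb9/Psmb6 and at -10.2 for Tap1/Tap2.

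The rest of the proteasome was higher in coculture where it passed the test. Of the 14 constitutive subunits of its barrel-shaped core, 4 rose in edgeR and the others did not pass, at a median log2 fold change of 0.71, and without replicate 3 of the cocultures 8 rose, at a median of 0.48. Psmb2, a non-catalytic subunit, rose with a log2 fold change of 1.15 (adjusted p = 0.0367), and without replicate 3 of the cocultures with 0.67 (adjusted p = 0.00202). For comparison, 14.3% of all genes rose, and 29.2% without that library. Of the 18 subunits of the regulatory cap that unfolds proteins, 7 rose and the others did not pass, at a median of 0.79, and without that library 13 rose, also at a median of 0.48. Among them Psmd8 was measured at 92.5, 129, 109 and 92.6 CPM in MKs alone and at 217, 239.8, 534 and 258 CPM in cocultures (log2 fold change 1.56, adjusted p = 0.00799), Psmd2 was at 1.30 (adjusted p = 0.0104) and the ATPase Psmc1 at 0.88 (adjusted p = 0.0126). These 3 also rose without replicate 3 of the cocultures, with log2 fold changes of 1.15, 1.05 and 0.74. Psmc1 did not pass without replicate 4 of the MKs alone (adjusted p = 0.0592), and Psmb2 did not pass without any library of MKs alone or replicate 2 of the cocultures (adjusted p between 0.0560 and 0.100). The summed level of the core subunits was highest in replicate 3, at 5318 CPM, against 2722 to 3079 CPM in MKs alone.

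Of the 9 genes for proteasome activators and assembly factors, 1 rose and the others did not pass, at a median of 0.39, and without replicate 3 of the cocultures 2 rose, at a median of 0.13. Over all genes 14.3% rose, and 29.2% without that library, so these counts are not read as a result about the list. Psme2 encodes a subunit of the interferon-inducible activator that favours peptide release. It was measured at 57.8, 95.7, 87.4 and 73.4 CPM in MKs alone and at 163, 157, 364 and 162 CPM in the cocultures. It rose with a log2 fold change of 1.43 (SE 0.33, adjusted p = 0.0148), and without replicate 3 of the cocultures with 1.004 (adjusted p = 0.000204), but did not pass without replicate 1 or 4 of the MKs alone (adjusted p = 0.0546 and 0.0564). Pomp, the chaperone of proteasome assembly, was at 1.17 (SE 0.38, adjusted p = 0.0544) and at 0.62 without replicate 3 of the cocultures (adjusted p = 0.00722), and the assembly chaperone Psmg3 at 0.71 (SE 0.44, adjusted p = 0.285). Psme1, the partner of Psme2 in the activator, was at 0.39 (SE 0.45, adjusted p = 0.571), and without replicate 3 of the cocultures at -0.33 (SE 0.18, adjusted p = 0.139). Psme1 was at 291 CPM in that library, against 71.8 to 92.5 CPM in the other cocultures. It was chosen after seeing its values.

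Nlrc5 encodes the transactivator of class I genes. It was low, at 4.86, 6.39, 3.66 and 4.56 CPM in MKs alone and at 5.50, 4.82, 0 and 2.78 CPM in the cocultures, from at most 62 counts in any library. The groups overlapped even apart from the 0 in replicate 3. The log2 fold change was -0.57 (SE 1.02, adjusted p = 0.730), and without that library -0.16 (SE 0.37, adjusted p = 0.734), so no difference was detectable at this depth.

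Of the 19 transcription factors listed for class I promoters, 8 fell and the others did not pass, at a median log2 fold change of -1.02. Without replicate 3 of the cocultures 11 fell, at a median of -0.83. The share of all genes that fell was 8.75%, and 25.9% without that library. Irf8, an interferon regulatory factor of myeloid and B cells, was measured at 97.8, 117, 109 and 126 CPM in MKs alone and at 30.1, 39.5, 50.2 and 49.1 CPM in cocultures, and fell with a log2 fold change of -1.42 (adjusted p = 0.00271). Irf2, which binds the same elements as Irf1, was measured at 43.3 to 59.4 CPM and at 15.4 to 23.9 CPM, and fell with a log2 fold change of -1.52 (adjusted p = 0.00486). Ciita, the class II transactivator, fell from 6.18 to 7.97 CPM to 0.628 to 1.21 CPM, with a log2 fold change of -2.77 (adjusted p = 0.00600). Irf8 and Ciita are expressed by dendritic and B cells, among others, and the part of any cell type in these values was not tested.

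Irf1, an activator of class I and immunoproteasome genes that was chosen after seeing its values, had a log2 fold change of -0.05 (SE 0.29, adjusted p = 0.930) with overlapping groups. Of the 7 interferon receptor and kinase genes 1 rose and 1 fell, at a median of -0.62, and without replicate 3 of the cocultures 1 rose and 4 fell, at a median of -0.78. Over all genes 14.3% rose and 8.75% fell, and without that library 29.2% and 25.9%. Jak1, the kinase shared by the interferon receptors, was measured at 461 to 559.7 CPM in MKs alone and at 130.2 to 333 CPM in cocultures, and fell with a log2 fold change of -0.97 (adjusted p = 0.0367). Jak1 did not pass with scaling to the MK and platelet markers (-0.64, adjusted p = 0.204). It also did not pass with library totals only (-0.90, adjusted p = 0.102) or with upper quartile scaling (-1.004, adjusted p = 0.0560). Ifngr2, the signalling chain of the interferon-γ receptor, was measured at 75.9 to 89.8 CPM and at 131 to 479 CPM, and rose with a log2 fold change of 1.41 (adjusted p = 0.0453, and 0.0519 with RLE scaling). The highest value, 479 CPM, was that of replicate 3, against 131 to 146 CPM in the other cocultures, and without it Ifngr2 rose with a log2 fold change of 0.71 (adjusted p = 0.00118). With 1 library left out, Jak1 kept its call without replicate 1 or 3 of the cocultures and Ifngr2 kept it without any of the cocultures, and in the other cases the adjusted p ran from 0.0610 to 0.118. Ifnar2, a chain of the type I interferon receptor, was at -0.62 (SE 0.25, adjusted p = 0.103), and without replicate 3 of the cocultures it fell by 0.91 on the log2 scale (adjusted p = 0.000202).

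Of the 7 negative regulators of interferon signalling 2 fell and the others did not pass, at a median log2 fold change of -0.75. They were Irf2bp2, a partner of Irf2, with a log2 fold change of -1.32 (adjusted p = 0.00273), and the phosphatase Ptpn6, with -1.36 (adjusted p = 0.0118, and 0.0509 without replicate 2 of the MKs alone). The phosphatase Ptpn2 was at -0.75 (SE 0.24, adjusted p = 0.0531). Without replicate 3 of the cocultures 5 of the 7 fell and 2 rose, at a median of -0.83. Among all genes 8.75% fell with all libraries, and without that library 25.9% fell and 29.2% rose. The 2 that rose are therefore not read as a result about the list.

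**Figure D4:**
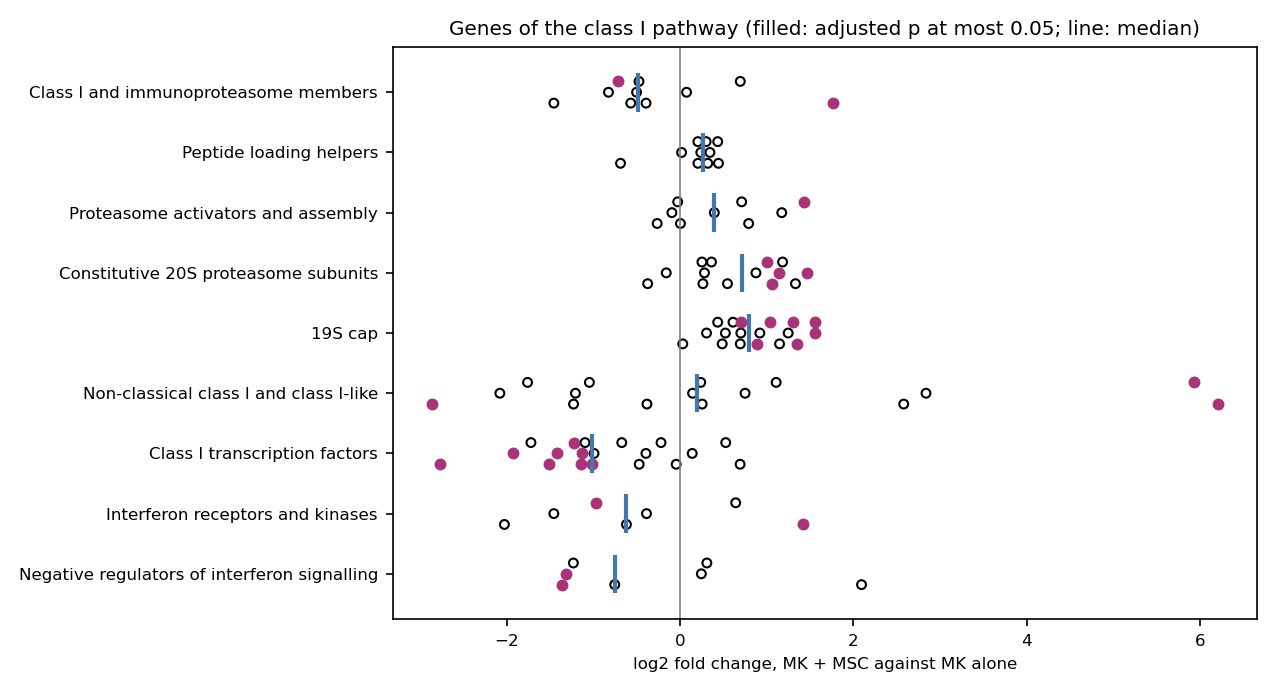
Log2 fold change in coculture against MKs alone of each tested gene in the members and 8 related lists, where filled points have an adjusted p of at most 0.05 and the blue line is the median of the list. The proteasome core and cap lie mostly above 0 with medians of 0.71 and 0.79, the class I transcription factors lie mostly below 0 with a median of -1.02, and the members spread from -1.46 for Psmb9 to 1.77 for Psmb10.

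Of 27 non-classical and class I-like genes listed, 19 were in the table and 16 were tested, of which 2 rose and 1 fell, at a median log2 fold change of 0.19. Without replicate 3 of the cocultures 17 were tested, of which 5 rose and 5 fell, at a median of -0.05. Over all genes 14.3% rose and 8.75% fell, and without that library 29.2% and 25.9%, so these counts are not read as a result about the list. H2-Q10, a heavy chain known as a secreted product of the liver, was measured at 12.1, 21.2, 20.7 and 14.6 CPM in MKs alone and at 1.52, 3.39, 1.26 and 3.30 CPM in cocultures (log2 fold change -2.87, adjusted p = 0.00647). Reads of H2-Q genes can be shared with H2-K1 and H2-D1, so this value is uncertain. Procr, the endothelial protein C receptor, whose fold resembles class I but which presents no peptide, was at 0.163 to 1.44 CPM in MKs alone and at 30.0 to 75.7 CPM in cocultures (log2 fold change 5.93, adjusted p = 0.000327). Raet1e, a stress ligand of the NK cell receptor NKG2D, was at 0 to 0.721 CPM and at 6.77 to 51.9 CPM (log2 fold change 6.21, adjusted p = 0.00945). The value of 51.9 CPM was that of replicate 3, against 6.77 to 8.63 CPM in the other cocultures, and the log2 fold change of Raet1e was 4.80 without that library (adjusted p = 8.62e-06) and 8.25 without replicate 2 of the MKs alone, which leaves 1 count of it in that group. DESeq2 without a block gave Raet1e no adjusted p. Raet1d, another gene of this list that was chosen after seeing its values, had 0 counts in replicate 3 of the cocultures, where Raet1e had 496. The other cocultures held 43 to 111 counts of Raet1d and 39 to 91 of Raet1e, and whether reads were divided between these genes was not tested. Procr was at 5.54 and H2-Q10 at -2.72 without replicate 3 of the cocultures. Neither Procr nor Raet1e needs the peptide-loading machinery of the members.

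To compare levels between genes, CPM was divided by the length of the exons in kilobases. B2m was highest, at 1867 ± 126 CPM per kb in MKs alone and 1318 ± 281 in cocultures (SD, n = 4), followed by H2-D1 at 767 ± 161 and 468 ± 79.3 and by H2-K1 at 232 ± 23.7 and 167 ± 28.2. Next in MKs alone were Psmb8 at 92.3 ± 18.4, Tapbp at 70.8 ± 7.84, Tap2 at 28.5 ± 8.28, Psmb9 at 24.1 ± 5.97, Tap1 at 17.8 ± 2.36 and Psmb10 at 17.5 ± 6.30 CPM per kb. Nlrc5 was lowest, at 0.599 ± 0.140 and 0.403 ± 0.304 CPM per kb. In MKs alone the means with their SDs overlapped for the neighbours Psmb8 and Tapbp, Tap2 and Psmb9, Psmb9 and Tap1, and Tap1 and Psmb10. In cocultures Tapbp, at 115 ± 43.2, had a higher mean than Psmb8, at 97.2 ± 49.7, and Psmb10 followed at 59.7 ± 49.4, Tap2 at 21.7 ± 10.2, Tap1 at 10.03 ± 6.91 and Psmb9 at 8.78 ± 5.33 CPM per kb. Every pair of neighbours from H2-K1 down to Psmb9 overlapped there.

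The members varied in different ways over the 8 libraries. The Pearson r of log2(CPM + 1) was 0.95 between H2-K1 and H2-D1, which share sequence, 0.97 between Tapbp and Psmb10, and 0.95 between Tap1 and Psmb9, while it was -0.33 between Tap1 and Tap2. These values describe 8 libraries in 2 groups, and those of Tap1 and Psmb9 rest on replicate 3 of the cocultures. The tested genes outside the members most like H2-K1 were Maml1 (r = 0.97), Cnppd1 (r = 0.95) and Wdtc1 (r = 0.95). Most like Tap1 were Mettl6, Daglb and Rtf1 and most like Psmb9 were Madd, Zkscan6 and Card6, each with r of at least 0.997.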

How the data were processed

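Bulk RNA-Seq libraries were grouped by their labels into MKs cultured alone and MKs cocultured with MSCs, with 4 libraries each. The authors deposited raw counts per gene, as whole numbers without normalization, from paired-end SMART-Seq HT libraries filtered with fastp and quantified with kallisto on mm10. The step from transcripts to gene counts, any rounding or filtering, and the use of strand are not given in the sources used here, and the batch in the authors' DESeq2 design is not named.

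The members and lists were chosen with earlier results of these data known. From these counts, fold changes were fitted in R 4.3.3 by edgeR 4.0.16 with TMM factors, filterByExpr and no covariate, and tested by its robust quasi-likelihood F test with Benjamini-Hochberg adjustment over all genes tested, and standard errors are the log2 fold change divided by the square root of F. Ratios within libraries were tested with exact two-sided permutation tests in scipy 1.17.1. The genes named were the members, Psmb5, Psmb6 and Psmb7, up to 3 genes of each pathway list with the smallest p, the most abundant gene of each marker list, and the 3 genes most correlated with H2-K1, Tap1 and Psmb9. The result of 1 listed gene is not reported here. H2-Ke6 was left out of the class I-like list because it encodes no class I protein. Positions came from GENCODE vM21 (GRCm38) and promoters from RefSeq (GRCm38.p6), where Tap2 and Nlrc5 were not analysed. The scripts were tested on simulated counts. Alternatives were DESeq2 1.42.0, other scalings and filters, glmTreat, a replicate block, 1 surrogate variable from sva 3.50.0, and leaving out each library. Libraries held between 4939874 and 12523616 counts. Without molecular identifiers, a floor covers counting error only.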

Additional observations from a re-analysis of the deposited data

Results flagged for a closer look

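Within groups of 4 libraries, the log2(CPM + 1) of each member and of Psmb5, Psmb6 and Psmb7, and the 6 log2 ratios, were examined for a library far from the others by Dixon's test. Such a library was found in 5 of 38 groups, and about 1 in 20, or 1.9 groups, would be by chance. The groups are not independent, because the ratios reuse the same genes, so these numbers do not measure an excess. Replicate 3 of the cocultures was the library in 4 of these groups, which were Tap1, Psmb9 and a ratio that holds each. Tap1 was at 0 in it, against 5.06 to 5.49 in the other cocultures, and Psmb9 was at 1.11, against 3.92 to 4.11. The log2 ratio of Psmb9 to Psmb6 was -9.08 in this library, against -4.17 to -3.95, and the log2 ratio of Tap1 to Tap2 was -10.2, against -0.70 to -0.43. The other was H2-D1 in replicate 1 of the MKs alone, at 10.11 against 10.75 to 10.83 in the rest of its group.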

How the results depend on the processing

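The count of members that rose was 1 (Psmb10) and the count that fell was 1 (H2-D1). The first became 0 with RLE scaling, with upper quartile scaling and with glmTreat, and 2 (Psmb10 and Tapbp) with scaling to the MK and platelet markers and with 1 surrogate variable. Leaving out 1 library gave 0 to 1. The second became 0 with library totals only, with scaling to the MK and platelet markers, without robust estimation and with glmTreat, 2 with every library required to hold 10 counts, 3 in DESeq2 and 6 with 1 surrogate variable. Leaving out 1 library gave 0 to 5, the highest without replicate 3 of the cocultures. Where these edgeR counts were 0, members at an unadjusted p under 0.05 numbered 1 to 2 higher and 0 to 3 lower, and DESeq2 gave 1 higher and 3 lower. The 2-fold count was 1 higher and became 0 with RLE scaling, upper quartile scaling and glmTreat and 0 to 1 without 1 library, and it was 0 lower and became 2 with 1 surrogate variable and 0 to 1 without 1 library. The cause was not tested, except that glmTreat asks for a change beyond 2-fold.

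Psmb8 reversed from 0.07 to -0.013 with library totals only, -0.063 with upper quartile scaling, -0.10 with 10 counts required in every library, which left 8 members, and -0.19 with 1 surrogate variable, and ran from -0.37 to 0.23 without 1 library. With the replicate number as a block the log2 fold change of Psmb8 was -0.018 in edgeR and -0.037 in DESeq2, members passing were 1 higher and 1 lower in edgeR and 1 higher and 2 lower in DESeq2, and genes that rose and fell over the whole table numbered 1177 and 683, against 1673 and 1026. Deviations of same-numbered libraries correlated with r of 0.37, 0.02, 0.15 and 0.03, and not every library correlated best with its own number, so the numbers were not taken to pair the libraries. The mean of the pair differences of the 6 ratios equals the difference of the group means, and no ratio passed with a pseudocount of 0.5 or 5. In the exact permutation test the smallest p is 0.0286, adjusted to 0.0857 when only Psmb8/Psmb5 and Psmb9/Psmb6 reach it. The lack of a pass with other pseudocounts is therefore no check of these ratios. Among the pathway genes named by the rule, the block lost the calls of Psmb2 (adjusted p = 0.0957) and Ifngr2 (adjusted p = 0.0915). Over the members, Psmb5, Psmb6, Psmb7 and the pathway genes named by the rule, other values kept direction and call in 581 cases, gained a call in 44, lost it in 66 and reversed in 8, all of Psmb8. The other genes of the pathway lists were not run under every alternative, and Psme1 reversed without replicate 3 of the cocultures. Over all genes, calls numbered between 818 higher and 303 lower (glmTreat) and 2880 higher and 3782 lower (1 surrogate variable), or 2627 and 1752 in DESeq2.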
